A study of Mus musculus with 6 samples.

Results

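Kctd5, Pdpk1, Amdhd2, Atp6v0c and Tbc1d24 lie next to each other within 157.8 kb of mouse chromosome 17, all on the minus strand. These 5 genes, of 31054 features measured, were selected on the difference between p16-DTR and control lungs, because Pdpk1 and Kctd5 were seen higher in p16-DTR and the other 3 stand beside them. Every value of a member in that contrast is therefore given as a description, without a test. What was tested are the genes around them, the pathways they belong to, and their levels between cell types in control lungs.

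The lungs came from 6 male mice aged 21 months and were profiled cell by cell with the 10x Genomics GEM-X kit, which counts RNA molecules from their 3′ ends by unique molecular identifiers (UMIs). The 3 p16-DTR mice were C57BL/6, p16-CreERT2/R26-LSL-DTR, in which tamoxifen-activated Cre in p16-expressing cells switches on the diphtheria toxin receptor from the Rosa26 locus. The 3 controls were C57BL/6, p16-CreERT2, so they carry the same Cre allele without the receptor. Tamoxifen was given to all mice for 5 days and, 2 weeks later, diphtheria toxin for 5 days. Lungs were taken after 2 weeks of recovery, and each library mixed 20000 CD45- with 9000 CD45+ sorted lung cells.

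Each library kept between 13025 and 16884 cells, with 253547357 to 343790460 UMIs in all and a median of 17091 to 18495.5 UMIs per cell. Pairs of libraries shared 59 to 94 cell barcodes, 0.392% to 0.586% of the smaller library. tdTomato, a fluorescent reporter listed among the features, had 74 to 94 UMIs in each p16-DTR library and 0 in each control, which allows up to 0.0118 CPM there (3 UMIs, counting error only; CPM is UMIs per 1e6 UMIs of the summed cells). Cdkn2a, the gene that encodes p16, stood at 7.10, 8.57 and 7.31 CPM in p16-DTR and 1.15, 2.60 and 2.84 in control, so it was higher, not lower, in the libraries labelled p16-DTR. Cells were placed in types by marker genes, and only the 20 types with at least 50 cells in every library were used. Among these, the lineage genes Cdh5, Col1a2, Epcam and Ptprc were each highest in the endothelial, mesenchymal, epithelial and immune types respectively. The alveolar type 1 gate held shallow cells, with a median of 1345.5 to 2205.5 UMIs.

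Pdpk1 encodes PDK1, the kinase that phosphorylates the activation loop of AKT and of other kinases such as SGK, S6 kinase and protein kinase C. AKT meets PDK1 at membranes where PI3-kinase has made the lipid PIP3, so PDK1 stands between growth factor receptors and growth and survival signalling. Kctd5 encodes an adaptor that brings substrates, among them G protein beta subunits, to the cullin 3 ubiquitin ligase. Amdhd2 encodes the deacetylase of N-acetylglucosamine-6-phosphate, which returns aminosugars to glycolysis. Atp6v0c encodes the membrane ring subunit of the proton pump V-ATPase, which acidifies lysosomes, and Tbc1d24 a protein with TBC and TLDc domains that binds the small GTPase ARF6 and acts in vesicle traffic.

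In GRCm38 (the mm10 build of the files, with GENCODE M21 gene models), Kctd5 spans chr17:24047734-24073485, Pdpk1 chr17:24073680-24150924, Amdhd2 chr17:24155833-24163766, Atp6v0c chr17:24163866-24169702 and Tbc1d24 chr17:24175431-24205562. All 5 are protein-coding genes. They run head to tail in the same direction, so that the end of one gene faces the start of the next. The 3′ end of Pdpk1 lies 194 bases upstream of the start of Kctd5, and the 3′ end of Atp6v0c lies 99 bases upstream of the start of Amdhd2. The gaps between Pdpk1 and Amdhd2 and between Atp6v0c and Tbc1d24 measure 4908 and 5728 bases. Whether reads within introns, or reads that run past the end of Pdpk1 into Kctd5, were counted is not given in the sources used here, so how far the Pdpk1 and Kctd5 counts are separate measurements was not tested.

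Because the results turn on Pdpk1 and Kctd5 against their neighbours, the sequence before a start site of each is shown with that before Amdhd2 for contrast (RefSeq promoter table, GRCm38.p6, minus strand, 5′ to 3′). The Kctd5 sequence is the whole gap behind Pdpk1, chr17:24073486-24073679. The Pdpk1 sequence covers 250 bases before a start site that lies inside the gene, in an intron of the longer transcripts, chr17:24141595-24141844. The Amdhd2 sequence is the whole gap behind Atp6v0c, chr17:24163767-24163865. Capitals mark GGGCGG (the GC box) on either strand in all of them, CCAAT on either strand in Kctd5 and Pdpk1, and CACGTG (an E-box, its own reverse complement) in Amdhd2. These motifs share no overlapping letters here.
Kctd5: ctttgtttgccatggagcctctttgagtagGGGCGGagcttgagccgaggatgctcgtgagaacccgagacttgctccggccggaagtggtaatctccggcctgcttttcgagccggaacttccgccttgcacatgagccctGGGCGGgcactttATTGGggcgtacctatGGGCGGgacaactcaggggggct
Pdpk1: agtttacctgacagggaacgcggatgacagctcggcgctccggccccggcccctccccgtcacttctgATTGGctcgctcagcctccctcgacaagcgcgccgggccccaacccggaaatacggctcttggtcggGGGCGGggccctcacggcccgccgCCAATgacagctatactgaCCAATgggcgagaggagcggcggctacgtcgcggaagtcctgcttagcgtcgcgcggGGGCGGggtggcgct
Amdhd2: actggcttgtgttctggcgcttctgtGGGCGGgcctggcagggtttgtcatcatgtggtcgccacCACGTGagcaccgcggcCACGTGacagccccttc

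The Kctd5 gap held 3 GGGCGG and 1 CCAAT matches and was 60.8% G and C. The Pdpk1 window held 2 GGGCGG and 3 CCAAT matches at 69.6% G and C, whereas the window before the outermost Pdpk1 start held no match to either motif at 46.4%. The Amdhd2 gap held 2 CACGTG matches and 1 GGGCGG match. The longer window of 250 bases before Amdhd2 held 1 CCAAT and 3 CACGTG matches, so the gap alone does not show a lack of CCAAT there. All 5 genes matched the RefSeq table, with 9 start sites between them. Over all 32851 promoter windows of 250 bases, 32.7% held GGGCGG, 33.8% held CCAAT, 6.02% held CACGTG, and the median G and C content was 52.4%. The Kctd5 and Amdhd2 gaps are shorter than these windows, so the shares do not apply to them directly. GGGCGG and CCAAT are thus common letters in such windows, and a match is a description of sequence only.

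Kctd5 stood at 22.9, 23.4 and 24.3 CPM in the 3 p16-DTR libraries and at 16.7, 16.96 and 17.8 in the 3 controls, all retained cells summed. Every p16-DTR library lay above every control. The group means were 23.5 ± 0.69 and 17.1 ± 0.57 (SD, n = 3 each), a ratio of 1.37. Pdpk1, the immediate upstream neighbour, stood at 103.9, 111.7 and 111.8 in p16-DTR and 73.9, 75.8 and 78.7 in control. Again the groups did not overlap, with means of 109 ± 4.55 and 76.2 ± 2.42 (SD, n = 3 each) and a ratio of 1.43. With TMM scaling, which corrects library totals for a few very abundant genes, the log2 fold changes of p16-DTR over control were 0.51 for Kctd5 and 0.57 for Pdpk1.

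The next 3 genes along the chromosome showed no such gap between the groups. Amdhd2 had 13.3, 10.8 and 12.5 CPM in p16-DTR and 11.9, 12.7 and 11.6 in control, a ratio of 1.01. Atp6v0c had 1.59, 1.85 and 1.72 against 1.89, 1.79 and 1.76, a ratio of 0.949. Tbc1d24 had 9.88, 10.4 and 10.2 against 11.3, 10.2 and 10.0, a ratio of 0.967. For each of these 3 genes the libraries of both groups interleaved. Their log2 fold changes were 0.07, -0.03 and 0.00. In bulk sums of this kind, fewer cells of a type and less RNA per cell cannot be told apart, and the values within cell types are given further on.

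Of 21630 genes tested over all retained cells, 8.58% had every p16-DTR library above every control and 22.5% had every one below. Among the members, 2 of 5 were in the first set and 0 in the second, and since the choice of members used this contrast nothing is read from that share. The edgeR quasi-likelihood test with Benjamini-Hochberg adjustment called 0 of the 21630 genes (0%), with 5043 at an unadjusted p under 0.05, while DESeq2 called 2643 of 20618 (12.8%). These p-values measure the spread between mice, 1 library each.

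**Figure D1:**
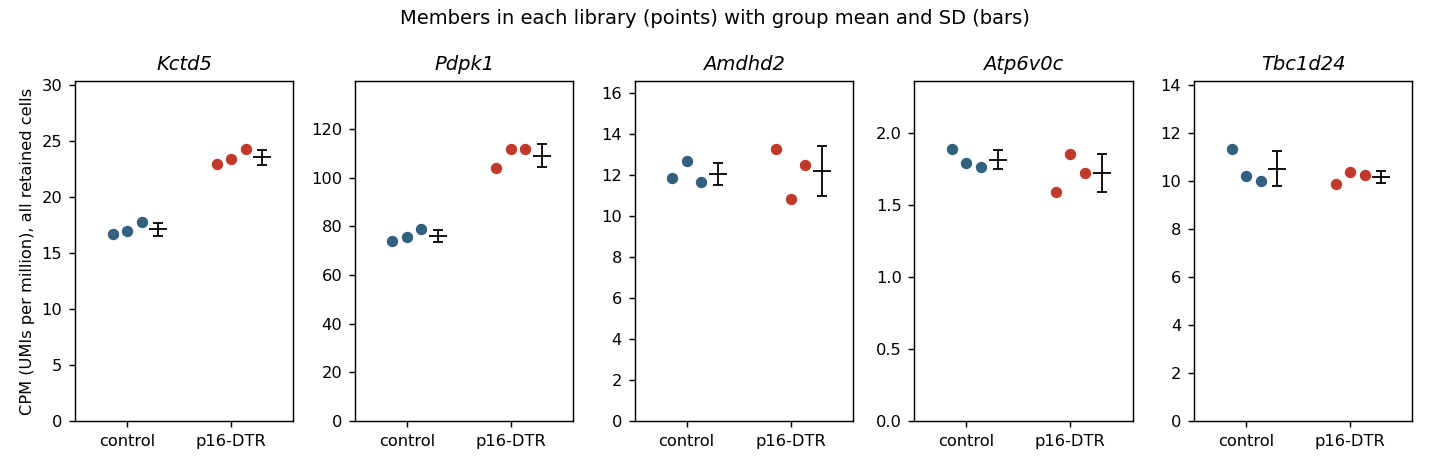
CPM of each member in all retained cells (y axis, from 0), 1 point per library, with the group mean and SD (n = 3) as a bar. Kctd5 and Pdpk1 points of the p16-DTR libraries all lie above the controls, while those of Amdhd2, Atp6v0c and Tbc1d24 interleave.

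The difference in Pdpk1 ran through nearly every cell type of the lung. In 19 of 20 gated types all 3 p16-DTR libraries lay above all 3 controls, with a median ratio of means of 1.45 over the types. The ratio was smallest in alveolar type 2 cells, 1.22, and largest in lymphatic endothelium, 1.62. Kctd5 also lay above in 19 of 20 types, with a median ratio of 1.38 and a range from 1.06 in alveolar type 1 cells to 1.58 in neutrophils. For both genes the exception was the alveolar type 1 gate, where Kctd5 had 103 UMIs and Pdpk1 499 over the 6 libraries. All types of a library come from the same mouse, so the 19 types are not separate replicates of the difference. Whether a shift shared by whole libraries recurs in each type was not tested. Pooled over types, 7.98% of 235789 tested gene and type pairs had every p16-DTR library above and 11.3% every one below.

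Natural killer cells had the highest mean Pdpk1 in CPM of all types in both groups. In controls their libraries overlapped those of ciliated cells, the next type. The level was 166, 187 and 178 CPM in p16-DTR against 118, 92.6 and 121 in control, a ratio of 1.601. CD8 T cells, with 161, 157 and 158 against 104, 98.3 and 111, had a ratio of 1.52. CD4 T cells, also with a ratio of 1.52, had 151, 153 and 142 against 95.2, 98.4 and 101. In each of these lymphocyte types the lowest p16-DTR library lay well above the highest control. B cells stood lower, at 98.8, 104 and 111 against 78.9, 82.0 and 76.7, a ratio of 1.32.

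Neutrophils and classical monocytes had the lowest Pdpk1 in CPM, and ratios at the smaller end. Neutrophils had 80.1, 74.1 and 71.8 CPM in p16-DTR and 52.5, 64.1 and 59.4 in control, a ratio of 1.28. Classical monocytes had 78.9, 80.4 and 78.7 against 59.9, 60.8 and 64.0, a ratio of 1.29. In nonclassical monocytes the ratio was 1.34.

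The capillary endothelium, which lines the gas exchange surface, gave a larger ratio. General capillary cells had 108, 114 and 117 CPM of Pdpk1 in p16-DTR and 77.8, 75.2 and 77.2 in control, from 30065 UMIs in all. Aerocytes, the second capillary type, had 122, 134 and 126 against 89.4, 80.3 and 81.9. Both groups were tight in each type, with ratios of 1.48 and 1.51. Lymphatic endothelium had 107, 114 and 115 against 62.7, 75.4 and 69.0. Venous and arterial endothelium gave ratios of 1.44 and 1.37.

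Mesenchymal and epithelial types ran the same way. Alveolar fibroblasts, the type with most Pdpk1 UMIs (35295), had 105, 111 and 107 CPM against 76.9, 77.9 and 79.0, a ratio of 1.38. Pericytes had the widest spread between p16-DTR libraries, 118, 165 and 160 against 89.9, 91.8 and 99.3. Alveolar type 2 cells had 78.7, 84.6 and 79.7 against 68.5, 69.1 and 62.2, still without overlap. Alveolar type 1 cells had 127, 113 and 136 against 113, 82.0 and 83.2, where the lowest p16-DTR and the highest control library met.

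Kctd5 levels also separated in most of these types, though by a narrow margin in some. In B cells Kctd5 had 29.2, 29.8 and 27.8 CPM in p16-DTR and 19.1, 19.01 and 18.5 in control, a ratio of 1.53. Venous endothelium had 27.0, 24.4 and 24.97 against 18.4, 18.4 and 18.6, and lymphatic endothelium 27.9, 27.3 and 27.6 against 18.7, 18.2 and 19.6. The control libraries of venous endothelium had an SD of 0.11. Ciliated cells, with the highest Kctd5 of the types used, had 42.2, 35.8 and 38.4 against 31.8, 30.0 and 30.3, a ratio of 1.26. Neutrophils, with the lowest, had 9.31, 10.3 and 9.56 against 6.38, 5.43 and 6.70. In nonclassical monocytes the groups came close, at 19.02, 24.3 and 19.97 against 17.2, 17.7 and 13.1. They also came close in natural killer cells, at 29.5, 26.2 and 30.9 against 24.3, 18.2 and 17.8. Peribronchial fibroblasts had 19.9, 17.7 and 21.2 against 16.9, 14.5 and 14.8. Alveolar type 1 cells had 13.6, 26.1 and 26.6 against 23.5, 29.2 and 9.98, and the groups interleaved.

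**Figure D2:**
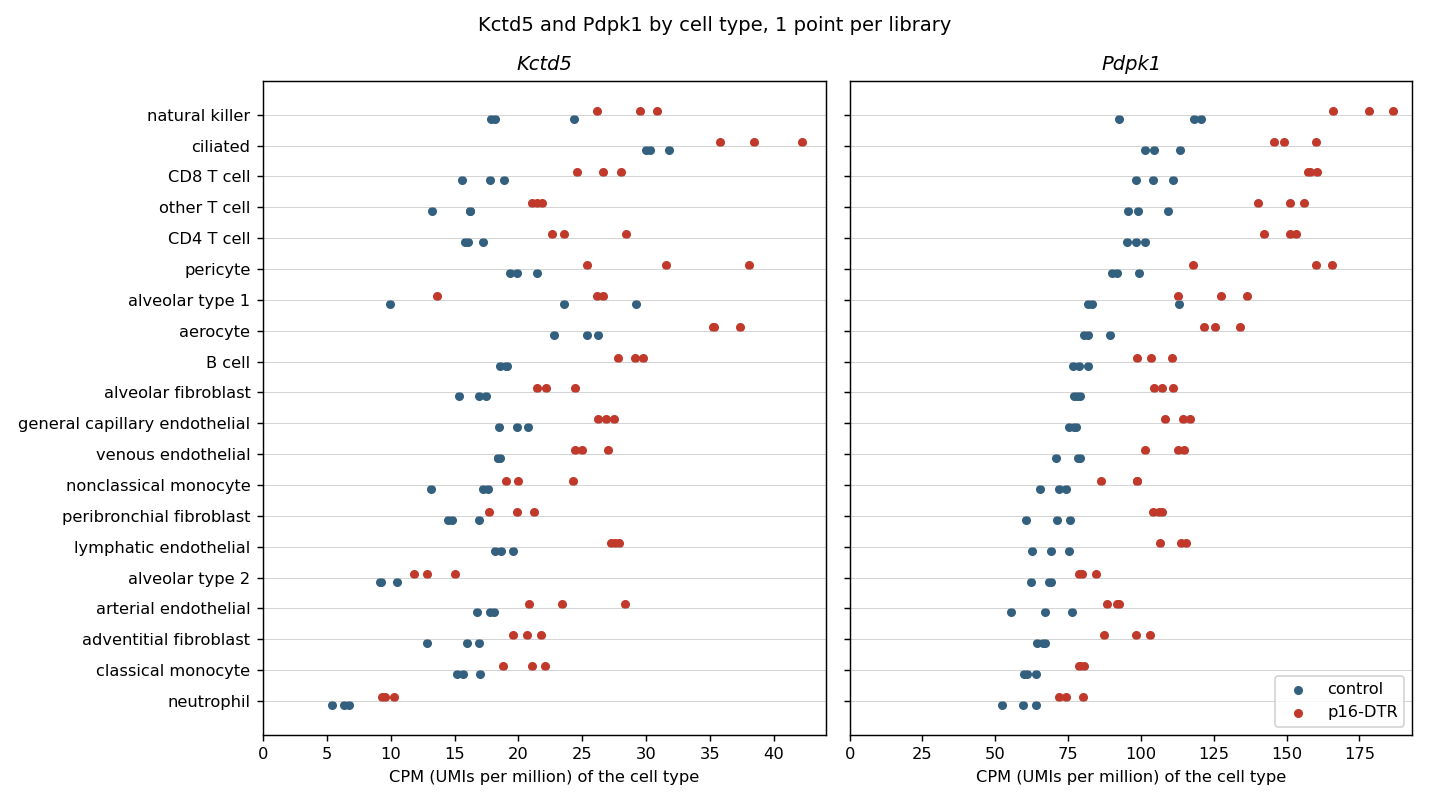
CPM of Kctd5 (left) and Pdpk1 (right) on the x axis by cell type, 1 point per library, p16-DTR in red and control in blue, types ordered by Pdpk1 in controls. In 19 of 20 types the red points of each gene lie to the right of all blue ones, and in alveolar type 1 they mix.

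The 3 other members had no such separation within types. Their few types without overlap are given beside the pooled shares of 7.98% above and 11.3% below. Those shares count only pairs with enough counts to be tested, which were 19 types for Amdhd2, 10 for Atp6v0c and 14 for Tbc1d24. With counts this small nothing is read from them. Amdhd2 groups overlapped in 19 of 20 types, with a median ratio of 0.960. The exception was the aerocyte, at 11.97, 10.1 and 10.2 CPM in p16-DTR and 13.97, 15.3 and 12.7 in control, where every p16-DTR library lay below. Atp6v0c groups overlapped in 18 types, with a median ratio of 0.913, and every p16-DTR library lay below the controls in alveolar fibroblasts and neutrophils. Tbc1d24 groups overlapped in 18 types, with a median ratio of 1.09. In alveolar type 2 cells Tbc1d24 had 22.9, 23.8 and 25.9 against 19.9, 21.3 and 21.2. Arterial endothelium had 11.3, 11.4 and 9.44 of Tbc1d24 against 7.98, 6.58 and 4.65, from 78 UMIs in all. In both of those types every p16-DTR library lay above every control. Leaving out a library can only keep or raise such a count, and it moved the 2 types of Tbc1d24 to 8 (p16-DTR replicate 1), 5 (control replicate 2) and 4 (control replicate 3), and a stricter cell filter or marker gate gave 1. The same count for Amdhd2, 0 with all libraries, was 3 without p16-DTR replicate 2 and at most 1 without any other library. The shares of 7.98% and 11.3% are for 3 against 3 libraries, and no share over all features is given for a left-out library. Nothing is therefore read from the counts with a library left out.

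Not all members could be measured in all types. Kctd5 and Pdpk1 passed the filter on low counts in 20 of 20 types, Amdhd2 in 19, Tbc1d24 in 14 and Atp6v0c in 10. Atp6v0c had 9 UMIs in pericytes and 12 in alveolar type 1 cells over all libraries, and Tbc1d24 had 4 in natural killer cells, which is why its ratio there reached 4.10. GENCODE M21 lists 2 processed pseudogenes of Atp6v0c, on chromosomes 6 and 7, which share 92.9% and 37.2% of their 31-base words with its transcripts. Tbc1d24 overlaps Ntn3 on the same strand over 1715 bases, and Pdpk1 overlaps an antisense gene and a sense intronic gene. None of these 5 genes was among the features measured, and their part in the counts was not tested. Over all retained cells Atp6v0c had a control mean of 1.81 CPM. The other Atp6v0 genes of the V-ATPase list ran from 2.40 for Atp6v0d2 to 135 for Atp6v0e. How much of the Atp6v0c RNA its counts hold was not tested.

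**Figure D3:**
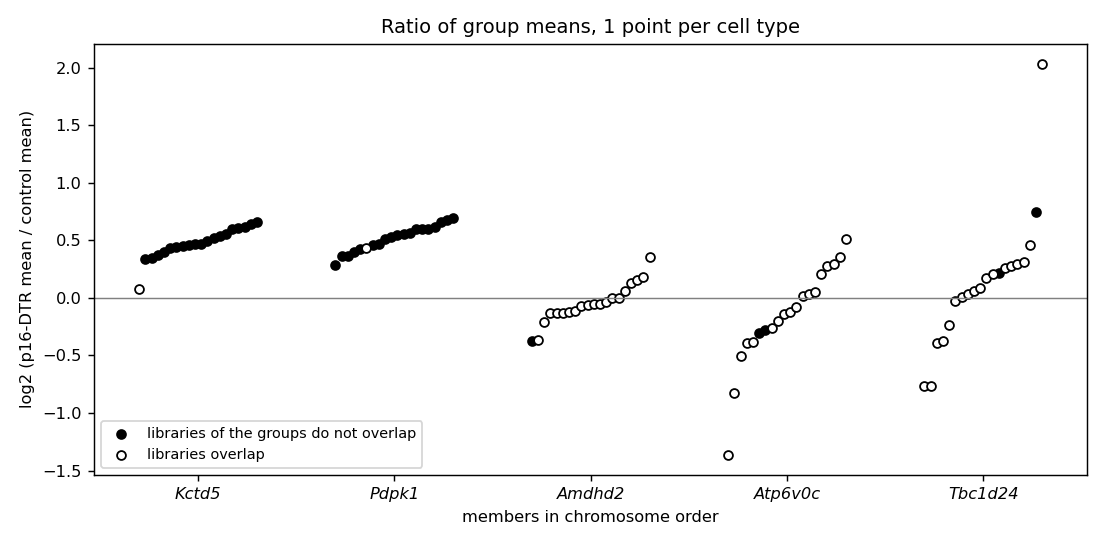
Log2 of the ratio of group means, p16-DTR over control (y axis), for each member in chromosome order, 1 point per cell type, filled where no library of one group overlaps the other. Kctd5 and Pdpk1 points all lie above 0 and 19 of 20 are filled for each, whereas the other 3 genes scatter around 0.

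The number of types without overlap was also counted for all features, as a description only, since Kctd5 and Pdpk1 were chosen on this contrast. No gene other than Kctd5 and Pdpk1 had every p16-DTR library above every control in as many as 18 types, and 34 genes did so in at least 10. The next were Fkbp5, a glucocorticoid-induced co-chaperone gene also on chromosome 17, and Cdkn2a on chromosome 4, with 16 types each. Types with too few counts to be tested are included here: Cdkn2a passed that filter in 14 types and Fkbp5 in 20. These comparison genes were named after their values were seen. In the other direction, 3 genes lay below in at least 18 types.

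The genes on either side of the members were tested in the fit over all genes. Of 61 non-member features whose bodies lie within 500 kb of the members, 48 had enough counts to be tested over all retained cells. The median log2 fold change of p16-DTR over control was -0.02 for these 48, against -0.01 for all genes tested, and single genes ranged from -1.28 for Prss32 to 0.71 for Kremen2. The edgeR test called 0 of the 48, with 11 at an unadjusted p under 0.05, and DESeq2 called 6. Prss32 (-1.28, 431 UMIs in all), Bicdl2 (-0.76), Syngr3 (-0.68) and Abca17 (-0.39) were the 4 lower ones, and Pgp (0.21) and Gfer (0.24) the 2 higher ones. The DESeq2 adjusted p of these 6 ran from 0.0017 for Bicdl2 to 0.0408 for Abca17, and the edgeR adjusted p from 0.130 to 0.178. Every p16-DTR library lay above in 6 and below in 14 of the 48. Over all genes DESeq2 called 12.8%, and 8.58% lay above and 22.5% below, so the DESeq2 count of the flanking genes is near that share.

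Prss27, a serine protease gene and the nearest tested gene beyond Kctd5, had 484 UMIs in all libraries and differed by 0.18 on the log2 scale (edgeR adjusted p = 0.596). On the other side, Tedc2, a gene for a centriole protein, stood at 3.46 CPM in p16-DTR and 4.45 in control, a difference of -0.31 on the log2 scale (edgeR adjusted p = 0.185). Neither passed the test. Within cell types, edgeR called 4 of 515 tests on flanking genes, 0.777%, beside 0.685% for all genes. The 4 were Tnfrsf12a, the TWEAK receptor, which rose in peribronchial fibroblasts by 0.78 on the log2 scale (adjusted p = 0.0254), and 3 genes that fell. Mmp25 fell by 2.07 (adjusted p = 0.0498) and Bicdl2 by 3.61 (adjusted p = 0.0429) in CD4 T cells, and Prss32 by 2.46 in alveolar fibroblasts (adjusted p = 0.0484). Levels of these genes were low over all retained cells. Means in p16-DTR and control were 2.93 and 3.34 CPM for Mmp25, 0.643 and 1.13 for Bicdl2, and 0.134 and 0.334 for Prss32. Their counts within those types are not given. No flanking gene had every p16-DTR library above every control in more than 8 types.

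**Figure D4:**
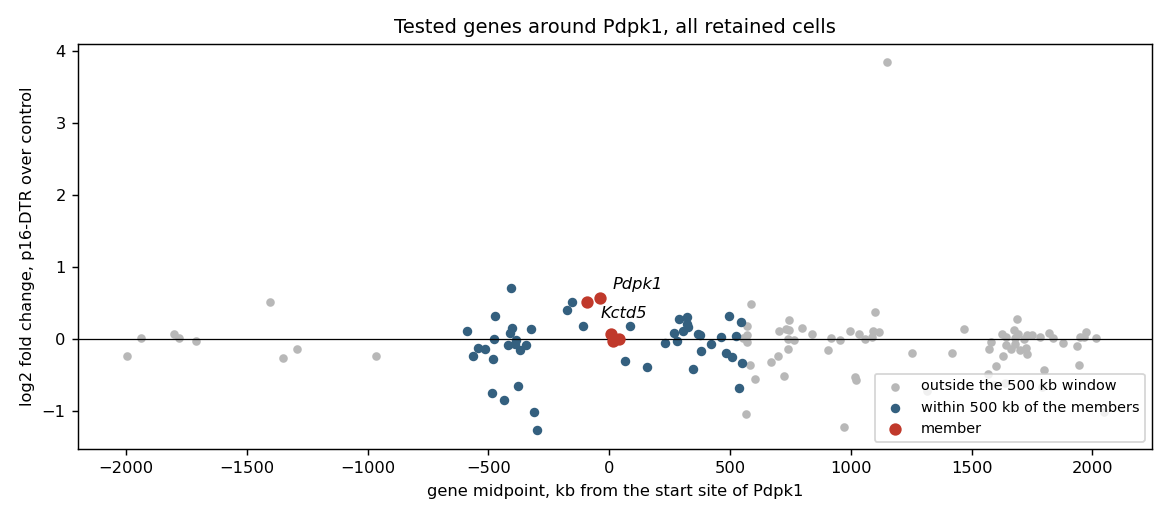
Log2 fold change of p16-DTR over control in all retained cells (y axis, edgeR) against the distance of each tested gene's midpoint from the start site of Pdpk1 in kb (x axis), for genes up to 2 Mb from the members. Kctd5 and Pdpk1 stand at 0.51 and 0.57 with the other members near 0, and the single point at 3.84 is Prss34, a basophil protease gene.

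All 37 genes of the PDK1 kinase pathway list were tested over all retained cells, where edgeR called 0% of all genes. It called 0 of the 37, with 9 at an unadjusted p under 0.05, and nothing is read from that about the list. DESeq2 called 7 higher and 0 lower, beside 1304 of 20618 genes called higher and 12.8% called in either direction. The median log2 fold change of the list was 0.05, beside -0.01 for all genes tested. Every p16-DTR library lay above in 9 of the 37 and below in 8, beside 8.58% and 22.5% of all genes. Within types, edgeR called Prkca, a protein kinase C gene, in opposite directions. Prkca rose in peribronchial fibroblasts, at 447, 500 and 497 CPM against 229, 272 and 279 (log2 fold change 0.93, adjusted p = 0.00791). In aerocytes Prkca fell by 0.40 on the log2 scale, at 193, 200 and 184 against 266, 246 and 270 (adjusted p = 0.0201). Rptor, the scaffold of mTOR complex 1, fell in natural killer cells by 0.60 (adjusted p = 0.0362).

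The relatives of the other members are read against the same shares over all genes. Of 29 tested genes of the KCTD family, cullin 3 and its G protein substrates, edgeR called 0 with 8 at an unadjusted p under 0.05, DESeq2 called 3 higher and 2 lower, and the median log2 fold change was 0.02. Kctd16, which encodes a GABA-B receptor subunit, fell in peribronchial fibroblasts from 1286 ± 197 to 576 ± 187 CPM (SD, n = 3 each, edgeR adjusted p = 0.0246). Of 23 V-ATPase genes, edgeR called 0 with 13 at an unadjusted p under 0.05, and the median was 0.14. DESeq2 called 9 of them higher and 0 lower, beside 1304 of 20618 genes called higher and 12.8% called in either direction. Every p16-DTR library lay above in 10 of the 23 V-ATPase genes and below in 2, beside 8.58% and 22.5% of all genes. Atp6v0a4, an a-subunit gene of the same V0 sector as Atp6v0c, fell in general capillary cells by 1.16 on the log2 scale (edgeR adjusted p = 0.0403).

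Of 15 hexosamine and aminosugar enzymes, 14 were among the features and all 14 were tested. edgeR called 0 with 2 at an unadjusted p under 0.05, DESeq2 called 1 higher, and the median was 0.02. Uap1, which makes UDP-N-acetylglucosamine, fell in venous endothelium by 0.51 (edgeR adjusted p = 0.0195). Of 10 tested genes with a TLDc domain or in ARF6 traffic, edgeR called 0 with 3 at an unadjusted p under 0.05, DESeq2 called 1 higher, and the median was 0.02. Oxr1, a TLDc gene, rose in CD4 T cells by 0.38 (adjusted p = 0.0289) and Tbc1d10a, an ARF6-linked TBC gene, in venous endothelium by 0.57 (adjusted p = 0.0268). Across the lists, edgeR called 9 of 1886 tests within types, 0.477%, beside 0.685% for all genes. Of the 13 calls within types on flanking and listed genes, Prkca in peribronchial fibroblasts held with each library left out in turn (edgeR adjusted p up to 0.0384). The other 12 each lost the call without at least 1 library of either group, with edgeR adjusted p up to 0.166, and all 104 refits kept the direction.

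The cell types were also compared with each other within the control lungs, a comparison that the choice of members did not use. Each type was compared with the mean of the 19 others by edgeR, with the library as a block. Over all genes tested, 32.6% of 346080 gene and type pairs were called above and 25.3% below, and of the 100 member and type pairs 26 were above and 22 below. Tbc1d24 was called in 18 of 20 types, Pdpk1 in 12, Amdhd2 in 9, Kctd5 in 5 and Atp6v0c in 4. Leaving out control replicate 3 lowered the Tbc1d24 count to 11, and leaving out control replicate 1 lowered the Atp6v0c count to 2.

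Tbc1d24 was highest in alveolar type 2 cells, fibroblasts and most endothelium and lowest in lymphocytes and neutrophils. Alveolar type 2 cells had the most, 19.9, 21.3 and 21.2 CPM in the 3 control libraries, 2.78 above the other types on the log2 scale (edgeR adjusted p = 1.76e-22). Peribronchial fibroblasts followed at 17.5 ± 3.66 and lymphatic endothelium at 16.6 ± 2.74 (SD, n = 3 each), then adventitial and alveolar fibroblasts at 15.2 and 15.1. General capillary cells stood at 11.5 and classical monocytes, the highest of the immune types used, at 5.86. The levels were 0.924 in B cells and 0.850 in CD4 T cells, which lay 2.19 and 2.24 below the other types on the log2 scale (edgeR adjusted p = 2.47e-08 and 1.34e-07). Neutrophils had 0.810, and natural killer cells, the lowest, 0.0763, from 1 UMI in the 3 control libraries. Ciliated cells, although epithelial, had 2.31. In total Tbc1d24 was called above in 10 types and below in 8. Without control replicate 3 the 10 calls above held and 7 of the 8 below were lost, all but natural killer cells. In control replicates 1 and 2 natural killer cells had 0 UMIs of Tbc1d24, and they are part of the mean the other types are compared with. B cells had 0.786, 1.08 and 0.903 CPM in control replicates 1, 2 and 3. Whether the 0 count led to the lost calls was not tested, so no change in those types is read from them.

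Amdhd2 and Atp6v0c were both called above the other types in classical monocytes and neutrophils. Amdhd2 reached 27.4, 27.9 and 21.6 CPM in classical monocytes, 1.51 above the other types on the log2 scale (edgeR adjusted p = 1.05e-17). Alveolar type 2 cells, at 13.3, 20.9 and 18.0 of Amdhd2, were 0.93 above (adjusted p = 3.74e-08), and neutrophils, at 13.5, 22.1 and 14.99, were 1.49 above (adjusted p = 1.03e-14). The neutrophil value depends on scaling, since it was 0.56 when library size alone was used, still called. Atp6v0c reached 4.22, 4.38 and 4.23 in neutrophils and 3.71, 3.87 and 3.76 in classical monocytes, 2.29 and 1.45 above on the log2 scale (adjusted p = 1.67e-11 and 1.48e-07). With library size alone the Atp6v0c values were 1.36 and 1.17, both still called. Nonclassical monocytes followed at 2.88 ± 0.701 (SD, n = 3), a call (0.94 above, adjusted p = 0.00297) that was lost without control replicate 1.

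Pdpk1 had the narrowest range across types of the 5 genes, from 58.7 CPM in neutrophils to 111 in natural killer cells, a 1.88-fold span of control means. Kctd5 ranged from 6.17 in neutrophils to 30.7 in ciliated cells, a 4.98-fold span, beside spans of 3.52 for Amdhd2 and 4.33 for Atp6v0c. Ciliated cells were called above for both, by 0.82 for Kctd5 and 0.35 for Pdpk1 on the log2 scale (edgeR adjusted p = 9.91e-11 and 2.45e-07). Aerocytes, at 25.4, 26.2 and 22.8, were called above for Kctd5 (0.45, adjusted p = 1.86e-05). CD8 T cells were called above for Pdpk1 (0.47, adjusted p = 3.5e-10), and lymphatic endothelium below (-0.51, adjusted p = 2.37e-08). With library size alone these Pdpk1 values were 0.42 and -0.23, both still called. For Pdpk1 in neutrophils the direction turned with the scaling: 0.45 above the other types with TMM and 0.48 below with library size alone, both called. For Kctd5 neutrophils were below under both, by 0.58 and 1.52.

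Few neighbours in the order of control levels were separate. Down the ranking of 20 types, the 3 libraries of a type lay above those of the next type in 4 of 19 steps for Kctd5, 1 for Pdpk1, 2 for Amdhd2, 2 for Atp6v0c and 4 for Tbc1d24. For Kctd5 the step from ciliated cells to aerocytes was such a step, and for Atp6v0c the step from neutrophils to classical monocytes. In the other steps the spread between libraries covered the difference.

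**Figure D5:**
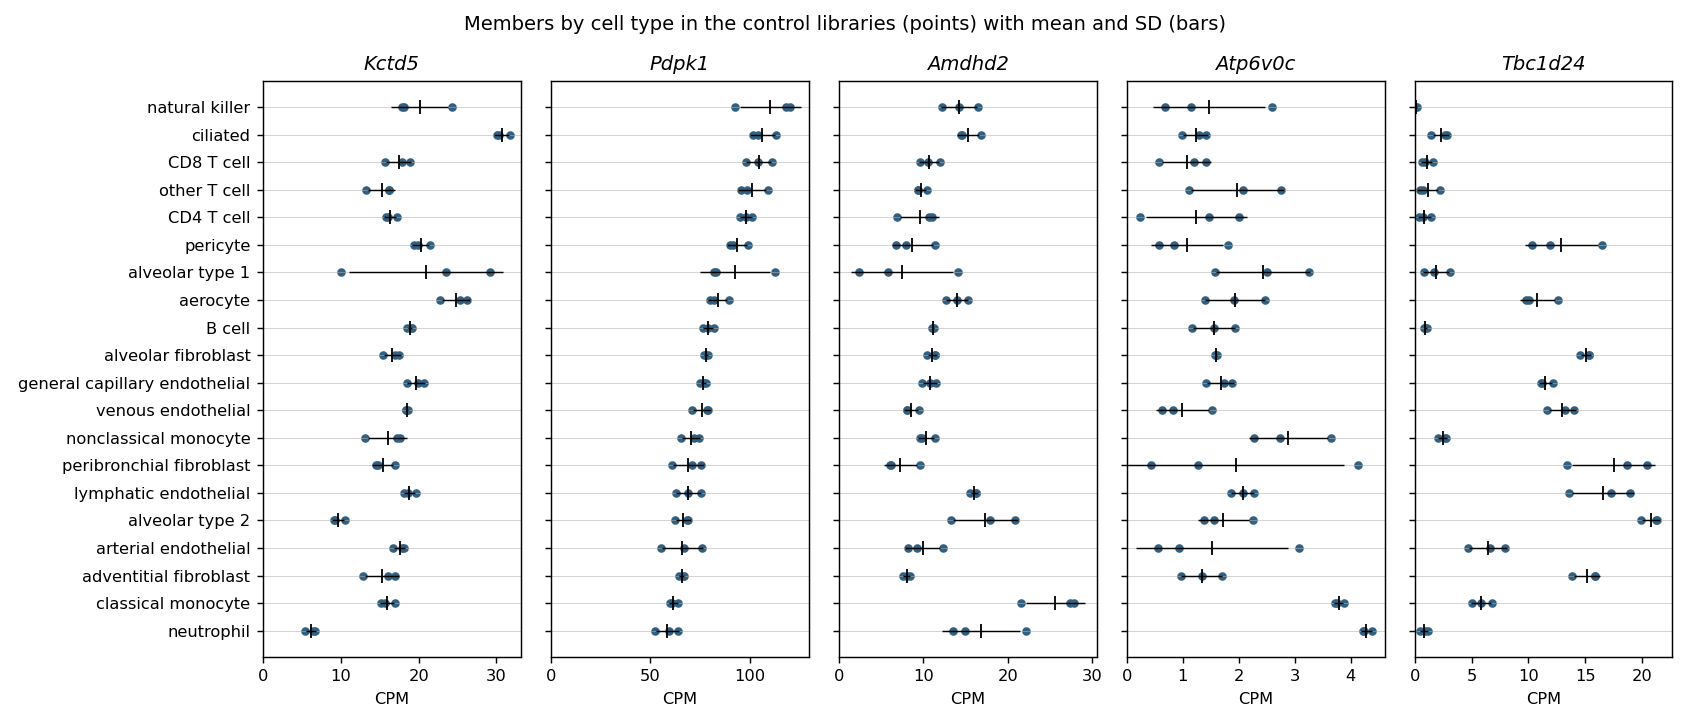
CPM (x axis, from 0) of each member by cell type in the 3 control libraries, with mean and SD (n = 3) as a bar, types ordered by Pdpk1. Tbc1d24 runs from 0.0763 in natural killer cells to 20.8 in alveolar type 2 cells, while Pdpk1 stays between 58.7 and 111.

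The patterns over types also differed between the members. Across 20 types in controls, values were taken as log2(CPM + 1) averaged over 3 libraries. Pearson's r was 0.59 between Kctd5 and Pdpk1 and 0.48 between Amdhd2 and Atp6v0c. It was -0.55 between Pdpk1 and Atp6v0c, -0.52 between Kctd5 and Atp6v0c and -0.51 between Pdpk1 and Tbc1d24. The other pairs lay between -0.25 and 0.02. These are descriptions over types that share the same libraries. The genes most like each member by the same measure were picked as the highest of all genes tested. Nothing is therefore read from the size of their r or from their chromosome. These genes all lay on other chromosomes. They were Mrs2 (0.94) and Isca2 (0.93) for Kctd5, Psph (0.90) and Bicdl1 (0.87) for Pdpk1, Gm20390 and Copz1 (both 0.74) for Amdhd2, Gm37168 and Gm20431 (both 0.85) for Atp6v0c, and Tceal8 (0.95) and Morc4 (0.93) for Tbc1d24.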

How the data were processed

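UMI counts per gene and cell were deposited by the authors, made with Cell Ranger 8.0.1 on the mm10 build per the submitters' processing notes; whether intronic reads were counted is not given in the sources used here. The deposited counts were not normalized. Barcodes with at least 500 UMIs, at least 300 genes and at most 15% mitochondrial UMIs were kept. A cell joined a type when it had at least 3 of that type's 6 markers at 2 or more UMIs and more than of any other type. Cells with 3 or more markers of another lineage were left out as possible doublets, T cells were split by Cd4 and Cd8, and 20 types with at least 50 cells in every library were used; no doublet caller was run.

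Counts were summed per library, over all retained cells and per type, and given as CPM, UMIs per 1e6 UMIs of that sum. Sums were tested with edgeR 4.0.16 (quasi-likelihood, filterByExpr, TMM, the group as the only term between groups, the type with the library as a block between types, Benjamini-Hochberg at 0.05) in R 4.3.3, and with DESeq2 1.42.0 as an alternative. All 6 libraries entered each comparison of groups, and the 3 controls alone the comparison of types. The scripts were tested on simulated data. Library pairs of a group differed by far more than sampling noise. Positions came from GENCODE M21, which held 30934 of the features.

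The members and gene lists were chosen with earlier results of these data known. Named genes are the members, the nearest tested gene on either side, list or flanking genes called over all cells, and the 2 genes most like each member; as edgeR called no gene over all cells, those it called within a type, the flanking genes DESeq2 called and Kremen2 were named after their values were seen, except 1 that is not reported here. Alternatives were scaling, filters, gates, barcodes, a replicate block and leaving out each library.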

Additional observations from a re-analysis of the deposited data

Results flagged for a closer look

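Kctd5 and Pdpk1 differed between the groups also in the retained cells that joined no gate, which the comparisons by cell type do not use. There the ratio of p16-DTR over control means was 1.399 for Kctd5, from 21.5, 20.7 and 23.0 CPM against 14.4, 14.9 and 17.3. The ratio was 1.47 for Pdpk1, from 101, 107 and 109 against 68.5, 72.2 and 74.9. Amdhd2, Atp6v0c and Tbc1d24 overlapped between the groups in these cells. The members were chosen on this contrast, so no test is given.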

How the results depend on the processing

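Over 13 alternatives each, the log2 fold change over all cells ran from 0.46 to 0.53 for Kctd5, 0.52 to 0.59 for Pdpk1, -0.04 to 0.15 for Amdhd2, -0.14 to 0.02 for Atp6v0c and -0.05 to 0.11 for Tbc1d24. Values that moved past 1 SD of the libraries were 0.46 for Kctd5 with library size alone, and -0.14 for Atp6v0c and 0.11 for Tbc1d24 with the gated types at equal weight. The scaling itself moved the median of all genes from -0.01 to -0.06. With the replicate number as a block (replicate block), edgeR called 0 genes and 0 flanking genes, and Kctd5 stood at 0.51 and Pdpk1 at 0.57. The numbers were not taken to pair the mice, since no label says that they mark a shared animal, litter or day. Same-numbered libraries correlated at 0.12, -0.02 and 0.13, and differently numbered ones at -0.16 to 0.04, which does not settle whether they pair. With the block 5689 genes had an unadjusted edgeR p under 0.05, beside 5043 without it. DESeq2 called 2643 genes and 6 flanking genes where edgeR called 0 under every setting; the cause was not tested. In controls, leaving out 1 library gave 2 to 4 called types for Atp6v0c, where the full count is 4, and 11 to 18 for Tbc1d24, where it is 18. The 7 lost without control replicate 3 were all below, in a fit where natural killer cells had 0 UMIs of Tbc1d24. Kctd5 in B cells lost its call in all 8 alternatives, and Pdpk1 in general capillary cells in 7 of 8. Low counts limit Atp6v0c most, with 9 to 579 UMIs per type. The refits of the 13 calls within types (2 other scalings and each library left out) were chosen after seeing the data; every call but Prkca in peribronchial fibroblasts was lost in some of them, with 1 to 4 of the 6 refits without a library keeping each of the others.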
